A study of Mus musculus with 18 samples.

Results

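The mir-221 and mir-222 cluster is a pair of neighbouring microRNA (miRNA) hairpins on mouse chromosome X. Its members were taken by name, as the entries mmu-mir-221 and mmu-mir-222 of the deposited read counts, which makes 2 of 1006 precursors. The rule uses names and no measured value, although it was written with earlier results of these data known. Both members passed the filter on low counts. The 18 small RNA libraries were made from Baf3 cells, an interleukin-3-dependent line of mouse pro-B cells.

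All cells carried fluorescent reporters for altered miR-15a and miR-16, and all received Cas9 with 1 guide RNA. The guides disrupted Rag1 in the control cells, both Safb and Safb2 in the cells called SAFB here, or Erh in the cells called ERH here. Each genotype had 2 guides, and each guide gave 1 population sequenced in 3 labelled batches, so a genotype had 6 libraries. The knockout populations were polyclonal. They had been selected with puromycin, sorted for derepression of the miR-15a reporter and regrown, so edited cells were chosen by a readout of miR-15a. The labels do not state separately how the control cells were sorted. Tests over libraries measure the spread between 6 libraries that come from 2 populations.

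A miRNA hairpin is cut from its primary transcript by the Microprocessor, a complex of Drosha and DGCR8, and then trimmed by Dicer. Some hairpins are poor Microprocessor substrates and are cut efficiently only when a good hairpin lies on the same transcript, which is called cluster assistance; SAFB proteins and ERH take part in it. mir-15a beside mir-16-1 is the best known assisted hairpin. miR-221 and miR-222 are made from 1 primary transcript and share targets through a common seed, among them the mRNAs of Kit, the stem cell factor receptor, and of the cell cycle inhibitor p27. They are known from blood progenitors, where their decline accompanies erythroid maturation. Comparing the knockouts with the control cells asks whether either member, or the balance between them, differed when assistance factors were disrupted.

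The mature sequences are shown because they place both members in 1 seed family. They are from RefSeq, build GRCm38.p6, written 5′ to 3′ with the seed, bases 2 to 8, in capitals.
mmu-miR-221-3p: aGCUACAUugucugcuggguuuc
mmu-miR-222-3p: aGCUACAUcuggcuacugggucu
mmu-miR-221-5p: aCCUGGCAuacaauguagauuucugu
Both 3p miRNAs are 23 bases long. They begin with the same 8 bases, and aligned from the 5′ end without gaps they are identical at 11 positions, so the 3′ parts tell the members apart. The 5p strand of mir-221 has another seed. Of the 1679 mature miRNAs in the table, 3 carry this seed; the remaining one is miR-1928, whose entry held 1 count over all 18 libraries. The entries mmu-mir-221 and mmu-mir-222 held 203529 and 25088 counts in all; they are per hairpin, so the share that came from the 3p strands is not known from them.

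The hairpins follow, with the 3p miRNA in capitals, since the Microprocessor acts on this form.
Mir222: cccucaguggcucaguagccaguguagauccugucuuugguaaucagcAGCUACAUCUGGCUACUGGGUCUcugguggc
Mir221: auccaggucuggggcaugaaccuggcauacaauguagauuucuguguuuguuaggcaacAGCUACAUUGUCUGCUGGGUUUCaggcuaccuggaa
Mir222 occupies chrX:19146893-19146971 on the minus strand and Mir221 occupies chrX:19146294-19146388 on the same strand, so mir-222 is transcribed first. The hairpins are 504 bases apart. In GENCODE M21, on GRCm38, neither lies inside another annotated gene, and the nearest is the noncoding gene Gm14636, 10010 bases away on the same strand. For comparison, Mir191 and Mir425 are 384 bases apart and Mir15a and Mir16-1 are 54 bases apart. RNAfold gave Mir221 a minimum free energy of -42.8 kcal/mol and Mir222 one of -40.7 kcal/mol, where the median of 1005 mouse hairpins was -32 kcal/mol. Per base these energies were -0.45 and -0.52 kcal/mol, against a median of -0.41. In the predicted folds 80% of the bases of Mir221 and 70.9% of those of Mir222 were paired, against a median of 69.0%. The predicted energies are a description of the annotated hairpins and are no measure of how well each is cut.

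The libraries held between 2699323 and 4470073 miRNA counts, and 396 to 455 precursors had a count. The blood-cell miRNA mir-142a stood at 109299 to 156621 CPM (counts scaled to a common library size) and mir-223, of myeloid cells, at 7453 to 21060 CPM. mir-155, of activated lymphocytes, ranged from 1223 to 1879 CPM and mir-150, of mature lymphocytes, from 1.44 to 25.05 CPM. Of 9 miRNAs of other tissues, mir-206 and mir-208a had no count, and the highest value was 34.2 CPM, of the liver miRNA mir-122.

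Both members were well measured in Baf3 cells. mmu-mir-221 had 8233 to 14550 counts per library, 0.269% to 0.455% of all miRNA counts, and ranked 33 to 41 by abundance. mmu-mir-222 had 984 to 1678 counts, 0.0327% to 0.0525% of miRNA counts, and ranked 71 to 81. Each entry is named for a hairpin and not for a strand, so it was read as the sum of both strands; how reads were assigned to entries is not given in the sources used here. Each hairpin has a single gene copy in the annotation. Counts were scaled by the trimmed mean of M-values (TMM) and are given as CPM.

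On the TMM scale mmu-mir-221 was at a similar level in the 3 genotypes, with the lowest mean in SAFB. As a share of miRNA counts it averaged 0.316% in control, 0.290% in SAFB and 0.371% in ERH. In control cells it measured 3611, 2880 and 3643 CPM with guide 1 and 3487, 3116 and 3787 CPM with guide 2, in batches 1 to 3. In SAFB cells it measured 3057, 2911 and 3146 CPM with guide 1 and 2948, 3054 and 3185 CPM with guide 2. In ERH cells the values were 3106, 3393 and 3301 CPM with guide 1 and 2857, 3037 and 3779 CPM with guide 2. The groups overlapped: 4 control libraries lay above every SAFB library, while control guide 1 in batch 2 lay below every SAFB library. Control cells averaged 3421 ± 349 CPM, SAFB cells 3050 ± 107 CPM and ERH cells 3245 ± 324 CPM (SD, n = 6).

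mmu-mir-222 was close to 400 CPM in every genotype. In control cells it measured 431.7, 392.3 and 408.8 CPM with guide 1 and 398.7, 372.4 and 422.5 CPM with guide 2. In SAFB cells it measured 332.6, 370.6 and 395.0 CPM with guide 1 and 401.0, 446.5 and 379.1 CPM with guide 2. In ERH cells the values were 390.4, 421.3 and 403.3 CPM with guide 1 and 384.0, 378.5 and 435.8 CPM with guide 2. The lowest and the highest of the 18 values were both in SAFB, in populations of different guides. Control cells averaged 404.4 ± 21.4 CPM, SAFB cells 387.5 ± 37.7 CPM and ERH cells 402.2 ± 22.5 CPM (SD, n = 6).

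**Figure D1:**
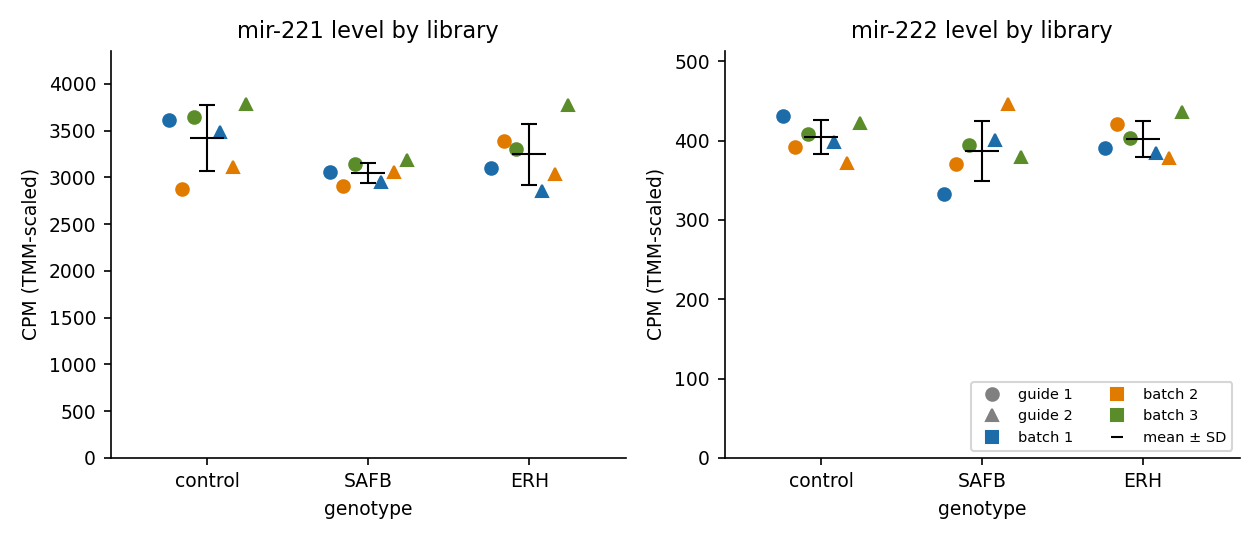
TMM-scaled CPM of mir-221 (left) and mir-222 (right) in each of the 18 libraries, by genotype. Circles are guide 1, triangles guide 2, colours the 3 batches, and bars the mean ± SD of 6 libraries; the groups overlap in both panels, and mir-221 spans the narrowest range in SAFB.

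In SAFB against control, mmu-mir-221 differed by a log2 fold change of -0.17 (SE 0.073, 95% interval -0.32 to -0.015), a fold of 0.892. The unadjusted p was 0.0325 and the adjusted p 0.0572 in the quasi-likelihood test of edgeR, so it was not called at the threshold of 0.05, although the unadjusted interval leaves out 0. Adding the batch as a replicate block gave -0.16 with an adjusted p of 0.0292 in edgeR, which is a call. In that fit 155 of 273 miRNAs were called. Within batches 1, 2 and 3 the difference of mean log2 CPM was -0.24, -0.0069 and -0.23; batch 2 holds the low control library. Leaving out 1 library at a time gave -0.15 (adjusted p = 0.110, without that control library) to -0.063 (adjusted p = 0.512, without control guide 2 of batch 3) in edgeR, with no call in 12 fits. In these fits the median of all miRNAs moved too, from 0.0083 to between 0.057 and 0.11. Relative to that median mir-221 stood at -0.24 to -0.12, against -0.17 with all libraries. Without the SAFB guide 1 population the log2 fold change was 0.016 (adjusted p = 0.898 in edgeR), with the median of all tested miRNAs at 0.19. Without the SAFB guide 2 population it was -0.050, with that median at 0.15. With counts summed per population, 2 against 2, it was -0.17 with an adjusted p of 0.140.

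mmu-mir-222 in SAFB against control had a log2 fold change of -0.062 (SE 0.076, 95% interval -0.22 to 0.095) and an adjusted p of 0.507. Of the 273 miRNAs tested, 56.0% were called in this comparison and 36.6% had 6 knockout libraries entirely above or below the 6 control libraries. Neither member was among either group. The median size of a log2 fold change over all tested miRNAs was 0.51, and 19.4% of miRNAs had a smaller one than mir-221 and 8.06% a smaller one than mir-222.

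In ERH against control, mmu-mir-221 differed by -0.076 on the log2 scale (SE 0.073, 95% interval -0.23 to 0.074, adjusted p = 0.412 in edgeR). mmu-mir-222 differed by -0.0080 (SE 0.076, 95% interval -0.17 to 0.15, adjusted p = 0.931). These intervals hold for TMM scaling only: total counts gave 0.23 and 0.30, both called, and spike-ins 0.20 and 0.28, neither called, as described with the scalings. Of all tested miRNAs 53.8% were called and 37.4% had groups that did not overlap, with a median size of 0.43. On this TMM scale neither member was called, and both overlapped. As a share of miRNA counts mir-222 did not overlap, at 0.0410% to 0.0525% in ERH and 0.0339% to 0.0406% in control. How many of all miRNAs did not overlap on that scale was not counted, so this is no trait of mir-222 alone. Under total counts the median of all miRNAs was also higher in ERH, by 0.24, and 108 of 273 were called higher and 33 lower. Within batches 1 to 3 the differences were -0.25, 0.0998 and -0.073 for mir-221 and -0.0997, 0.063 and 0.013 for mir-222.

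Between the knockouts, ERH minus SAFB, mmu-mir-221 differed by 0.090 (95% interval -0.061 to 0.24, adjusted p = 0.354) and mmu-mir-222 by 0.054 (95% interval -0.10 to 0.21, adjusted p = 0.617). Here 39.6% of miRNAs were called and 20.5% did not overlap between the groups. Keeping only miRNAs that averaged 100 counts or more gave 0.22 for mir-221 with an adjusted p of 0.0494 in edgeR, a call. In that fit the median of the miRNAs kept was 0.088, and 75 of the 153 kept were called.

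The populations made with different guides show how far independently edited cells of 1 genotype differed. In control, guide 2 minus guide 1 was 0.036 for mmu-mir-221 and -0.046 for mmu-mir-222. In SAFB it was 0.012 for mir-221 and 0.16 for mir-222, and in ERH it was -0.019 and -0.020. Under TMM, which gave these values, the lowest adjusted p of these 6 was 0.872 in edgeR. Under spike-ins both members were called between guides in control and in ERH, where the median of all miRNAs was 0.63 in each. Under TMM 0% of all tested miRNAs were called between guides in control, 0% in SAFB and 0.366% in ERH. At an unadjusted p under 0.05 in edgeR the TMM counts were 7, 10 and 18 of 273. The share of all miRNAs called between guides under spike-ins was not counted.

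The ERH values depended on the scaling. With total counts as library size, ERH minus control was 0.23 for mmu-mir-221 and 0.30 for mmu-mir-222, with adjusted p of 0.0201 and 0.00278 in edgeR. The median of all 273 miRNAs moved with them, from -0.061 to 0.24. With spike-in counts as library size the values were 0.20 and 0.28 and the median 0.23, with adjusted p of 0.585 and 0.426. Relative to the median tested miRNA, mir-221 stood at -0.015 and mir-222 at 0.053 under TMM, at -0.0030 and 0.062 under total counts and at -0.033 and 0.051 under spike-ins. Over 29 fits, the distance from the median in ERH against control ran from -0.10 to 0.068 for mir-221, below 0 in 25, and from -0.075 to 0.13 for mir-222, below 0 in 3; the filter on a mean count of 100 gave both upper ends. The calls over all miRNAs moved too: 72 were higher and 75 lower in ERH under TMM, 108 and 33 under total counts, and 72 and 19 under spike-ins.

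ERH minus SAFB behaved likewise. Under total counts it was 0.36 for mmu-mir-221 and 0.32 for mmu-mir-222, both called, with a median of 0.31; under spike-ins it was 0.62 and 0.60, both called, with a median of 0.57. Over all miRNAs 65 were higher and 43 lower under TMM, 115 and 8 under total counts, and 111 and 1 under spike-ins. For SAFB against control the spike-ins gave -0.42 and -0.32, with adjusted p of 0.126 and 0.287 and a median of -0.23, and 44 miRNAs were called higher and 58 lower, against 84 and 69 under TMM. Under spike-ins, guide 2 minus guide 1 in control was 0.67 for mir-221 and 0.60 for mir-222, both called, with a median of 0.63. In ERH it was 0.57 and 0.58, both called, with a median of 0.63. In SAFB it was -0.035 for mir-221 (adjusted p = 0.992 in edgeR) and 0.12 for mir-222, neither called, with a median of -0.029. Spike-ins took 0.165% to 0.366% of counts. Relative to the median miRNA, mir-221 was lower in SAFB than in control in 29 of 29 fits, by 0.10 to 0.24, of which 1 called the difference on the library scale. For mir-222 in SAFB that distance ran from -0.19 to 0.028, below 0 in 25 fits. In ERH minus SAFB it ran from 0.018 to 0.13 for mir-221, below 0 in 0 fits, and from -0.084 to 0.14 for mir-222, below 0 in 6. The fits share libraries, so these counts are no independent support.

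**Figure D2:**
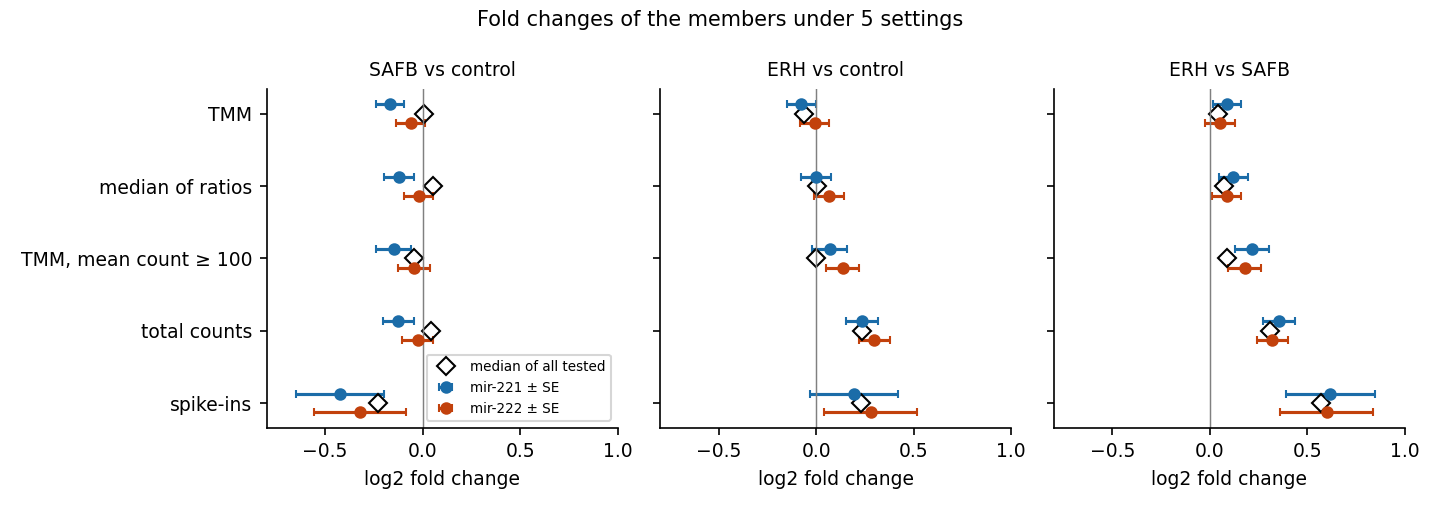
Log2 fold change ± SE of mir-221 (blue) and mir-222 (orange) in the 3 comparisons under 5 settings, with the median of all tested miRNAs as open diamonds. The members follow the median from setting to setting: in ERH vs SAFB it moves from 0.04 under TMM to 0.57 under spike-ins.

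The within-library ratio needs no scaling. Over the 18 libraries there were 6.84 to 9.19 counts of mmu-mir-221 for each count of mmu-mir-222, and mir-222 made up 9.81% to 12.8% of the counts of the pair. The ratio compares counts of different molecules, whose ligation and amplification can differ, so its level is not a ratio of molecules; only its change between libraries was compared. The log2 ratio of mir-222 to mir-221 had an SD of 0.11 over the 18 libraries, while the SD from counting alone was 0.037 to 0.049.

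In control the log2 ratio was -3.06, -2.88 and -3.15 with guide 1 and -3.13, -3.06 and -3.16 with guide 2. In SAFB it was -3.20, -2.97 and -2.99 with guide 1 and -2.88, -2.77 and -3.07 with guide 2. In ERH it was -2.99, -3.01 and -3.03 with guide 1 and -2.89, -3.004 and -3.12 with guide 2. The 3 groups overlapped, and both ends of the range, -3.20 and -2.77, were SAFB libraries. The means were -3.08 ± 0.11 in control, -2.98 ± 0.15 in SAFB and -3.01 ± 0.071 in ERH (SD, n = 6).

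The ratio differed from control by 0.094 in SAFB (95% interval -0.071 to 0.26) and by 0.067 in ERH (95% interval -0.051 to 0.17). Two-sided exact permutation tests of 6 against 6 libraries gave p of 0.238 and 0.227, both 0.357 after adjustment over the 3 comparisons. ERH minus SAFB was -0.027 (95% interval -0.18 to 0.12, exact permutation p = 0.714). Without control guide 1 of batch 2, which had the highest control ratio, SAFB differed by 0.13 (exact permutation p = 0.0887, adjusted p = 0.133) and ERH by 0.11 (exact permutation p = 0.0195, adjusted p = 0.0584). Over all 12 fits that left out 1 library the SAFB difference ran from 0.052, without SAFB guide 2 of batch 2, to 0.14, without SAFB guide 1 of batch 1. The ERH difference ran from 0.044, without ERH guide 2 of batch 1, to the 0.11 given above. Leaving out a population gave 0.020 (without SAFB guide 2) to 0.17 (without SAFB guide 1) for SAFB and 0.024 (without control guide 2) to 0.11 (without control guide 1) for ERH. No adjusted p in these fits was under 0.05. Within batches 1 to 3 the SAFB difference was 0.057, 0.097 and 0.13 and the ERH difference was 0.15, -0.037 and 0.085. Between guides the ratio differed by -0.087 in control, 0.15 in SAFB and 0.0063 in ERH, with exact permutation p of 0.4, 0.3 and 0.9, where 3 against 3 libraries allow no p below 0.1.

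**Figure D3:**
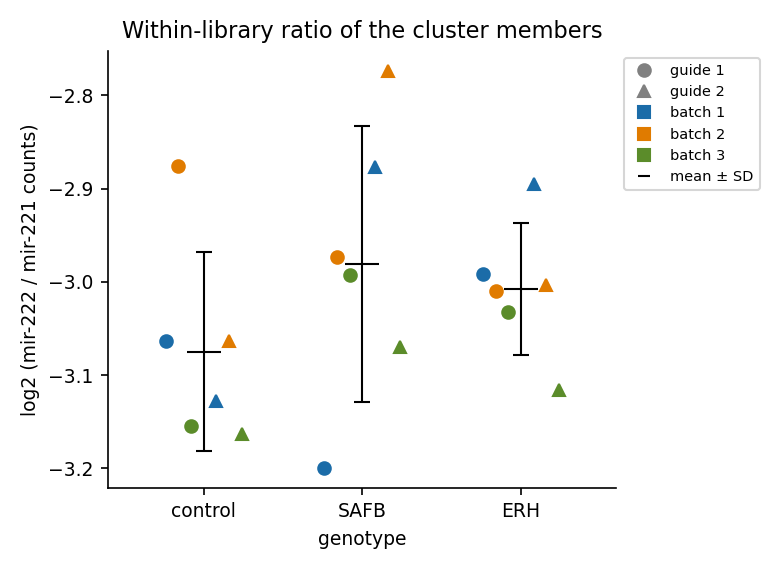
Log2 ratio of mir-222 to mir-221 counts in each library, by genotype; symbols are guides, colours batches, and bars the mean ± SD of 6 libraries. The groups overlap, with 1 control library at -2.88 above the other 5.

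Beside this pair stand 2 clusters that were picked because 1 of their hairpins was known to fall in both knockouts, so their values are a description and no test of a difference is drawn from them. For mir-425 over mir-191 the log2 ratio of control cells was -2.45 ± 0.30, that of SAFB cells -7.32 ± 0.37 and that of ERH cells -6.16 ± 0.54 (SD, n = 6). For mir-15a over mir-16 the values were -7.98 ± 0.12, -11.8 ± 0.23 and -10.3 ± 0.37 in the same order. The change of mir-222/mir-221 lay above that of mir-425/mir-191 by 4.97 in SAFB and 3.78 in ERH, and above that of mir-15a/mir-16 by 3.93 and 2.41. The loss of mir-15a activity was how the knockout cells were sorted. From its name, the mir-16 entry was read as the sum of its gene copies.

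Among 23 listed pairs of neighbouring hairpins, 20 had both members tested. The absolute change of the mir-221/mir-222 ratio ranked as the third smallest of the 20 in SAFB and again in ERH. The 19 other pairs ranged from 0.048 to 4.88 in SAFB, with a median of 0.50, and from 0.045 to 3.72 in ERH, with a median of 0.30. A change above 0.5 was seen in 9 of the other pairs in SAFB and in 8 in ERH. The pair nearest to mir-221/mir-222 in SAFB was mir-322/mir-503, at 0.11, and the pair nearest in ERH was mir-200c/mir-141, at 0.079. The latter rests on low counts, with mir-200c at 10.1 to 27.4 CPM over the libraries. mir-23a/mir-27a, at 0.048 and 0.045, changed least. Several pairs use the entries of mir-16 or mir-29b, which were read as sums of gene copies, so the pairs are not independent.

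**Figure D4:**
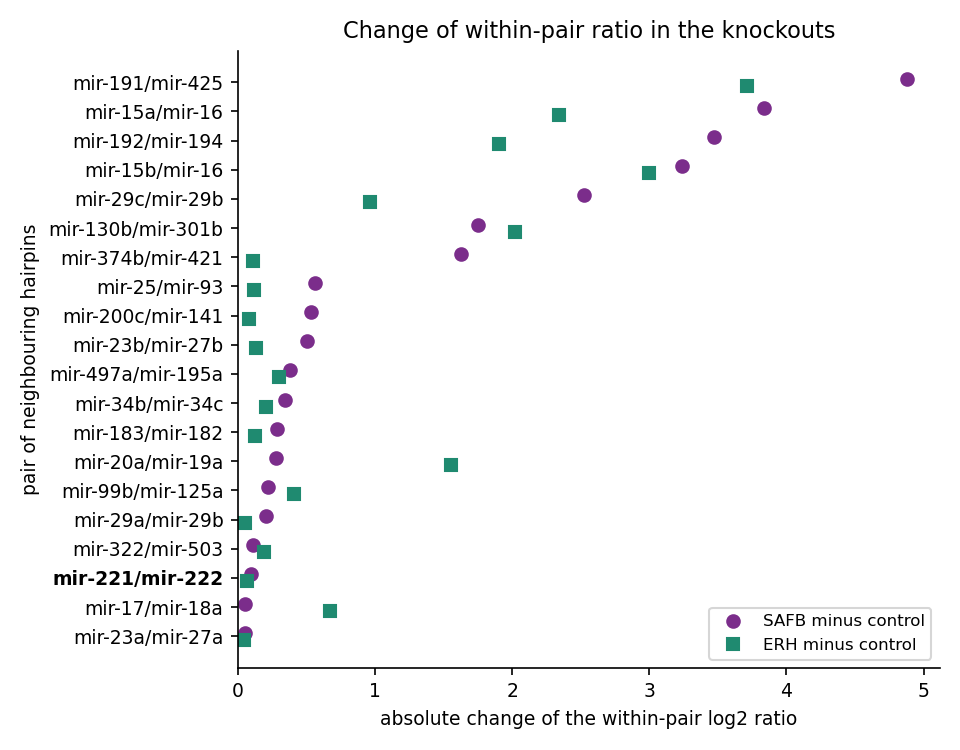
Absolute change of the within-pair log2 ratio from control in SAFB (circles) and ERH (squares) for the 20 pairs of neighbouring hairpins with both members tested. mir-221/mir-222, in bold, lies at 0.094 and 0.067, near the lower end, and mir-191/mir-425 lies highest at 4.88 and 3.72.

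On the TMM scale the members varied little across the 18 libraries, and the ranks below hold for that scale only. Among 114 miRNAs with a mean of at least 100 CPM, the SD of log2 CPM of mmu-mir-222 was the lowest, at 0.10, and that of mmu-mir-221 ranked 8 at 0.13, where the median was 0.24. Each member was the other's nearest profile among 113, by the root-mean-square difference of centred log2 CPM over the 18 libraries, at 0.11. Next to mmu-mir-221 came mir-106b at 0.14 and mir-23a at 0.14, and next to mmu-mir-222 came mir-148b at 0.14 and mir-324 at 0.15. All profiles share the libraries and their scaling, and profiles that vary little are near each other by this measure.

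Other miRNAs known in blood cells give the setting. Of 25 listed, 23 were tested. On the TMM scale 9 rose in SAFB, 8 fell and 6 were not called, with a median log2 fold change of -0.064. Over all 273 tested miRNAs 84 rose and 69 fell, which is 56.0% called, with a median of 0.0083. Total counts called 9 of the list higher and 8 lower in SAFB, with a median of -0.021, and over all miRNAs 90 and 66, with a median of 0.043. Spike-ins called 7 of the list higher and 7 lower in SAFB, with a median of -0.34, and over all miRNAs 44 and 58, with a median of -0.23. In ERH 8 of the list rose, 13 fell and 2 were not called, with a median of -0.24, where over all 273 miRNAs 72 rose and 75 fell, 53.8% called, with a median of -0.061. The falls in ERH depended on the scaling. Median-of-ratios scaling called 8 of the list higher and 10 lower, with a median of -0.16, and over all miRNAs 81 and 65, with a median of 0.0055. Total counts called 8 of the list higher and 3 lower, with a median of 0.071, and over all miRNAs 108 and 33, with a median of 0.24. Spike-ins called 7 of the list higher and 0 lower, with a median of 0.040, and over all miRNAs 72 and 19, with a median of 0.23. Between the knockouts 10 were higher in ERH, 6 lower and 7 not called under TMM, against 14, 2 and 7 under total counts and 12, 0 and 11 under spike-ins; over all miRNAs 65 were higher and 43 lower under TMM, 115 and 8 under total counts, and 111 and 1 under spike-ins.

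The most abundant of the list, mir-142a, had -0.23 in ERH (adjusted p = 0.0016) under TMM and 0.073 under total counts, and -0.062 in SAFB (adjusted p = 0.378). mir-21a, which represses tumour suppressor mRNAs, had -0.45 in ERH (adjusted p = 9.9e-06) under TMM and -0.14 under total counts, and -0.064 in SAFB (adjusted p = 0.462). mir-29a had -0.20 in ERH (adjusted p = 0.0065) under TMM and 0.10 under total counts, and -0.10 in SAFB (adjusted p = 0.140). Under median-of-ratios scaling mir-142a had -0.16 and mir-21a -0.37 in ERH, both called, and mir-29a had -0.13, not called. None of mir-142a, mir-21a and mir-29a was called in ERH against control under total counts or spike-ins. mir-223 rose by 0.86 in SAFB (adjusted p = 4.0e-05), and was called higher there under total counts, median-of-ratios scaling and spike-ins as well, with 0.60 under spike-ins. In ERH it had -0.061 (adjusted p = 0.769) under TMM, 0.0040 under median-of-ratios scaling, 0.24 under total counts and 0.22 under spike-ins, with no call under any of them.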

How the data were processed

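The authors deposited raw counts of reads, as whole numbers, for 18 libraries over 1006 precursors and 4 spike-ins. Per the labels' protocols, total RNA was mixed with the spike-ins and made into libraries with the QIAseq miRNA kit. Per the submitters' processing notes SAMtools was used; the aligner, counting program, build and any collapsing of molecular identifiers are not given in the sources used here, so depth speaks to counting error only.

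Counts without spike-ins were tested with edgeR 4.0.16 (R 4.3.3, limma 3.58.1): filterByExpr at a minimum count of 10 left 273 miRNAs, with TMM scaling, 1 mean per genotype and Benjamini-Hochberg adjustment over all 273. The standard error is the log2 fold change divided by the square root of F. Log2 ratios used counts plus 0.5 and exact two-sided permutation tests between genotypes and guides, with intervals from inverting the test. RNAfold was version 2.7.2 and DESeq2, an alternative, 1.42.0.

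The labels number the batches, which pairs libraries: after subtracting population means, libraries had a mean correlation of 0.093 within a batch (45 pairs) and of -0.046 between batches (90 pairs). Libraries of a population differed by more than sampling noise (chi-square per degree of freedom 27.5 to 157). Members, lists and comparison clusters were chosen with earlier results of these data known. Named besides the members are the 3 nearest profiles, the 4 most abundant listed blood miRNAs, and the comparison and nearest pairs. mir-23a/mir-27a, and the marker miRNAs of lowest and highest level, were named after their values were seen.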

Additional observations from a re-analysis of the deposited data

Results flagged for a closer look

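In control, 1 library stood apart in the log2 ratio of mmu-mir-222 to mmu-mir-221. Guide 1 of batch 2 was at -2.88, the other 5 control libraries lay between -3.16 and -3.06, and its gap to the nearest of them took 0.653 of the group's range, above Dixon's 95% critical value for 6 libraries. The same library had the lowest mir-221 level of the control libraries, 2880 CPM, while its mir-222 level, 392.3 CPM, lay inside the range of the others. Of 9 such groups examined, 1 met this criterion, and chance flags about 1 group in 20.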

How the results depend on the processing

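Values are log2 differences, and the cause of a change of sign or call was not tested unless stated. No member was called in any fit that left out 1 library. Such fits changed both the libraries and which miRNAs passed the filter (279 to 287, against 273), so what moved the scale was not tested. Their ranges were -0.15 to -0.063 for mmu-mir-221 and -0.038 to 0.040 for mmu-mir-222 in SAFB against control. In ERH against control they were -0.074 to 0.024 and 0.0056 to 0.070. The median of all miRNAs moved too. It went from 0.0083 to between 0.057 and 0.11 in SAFB, and from -0.061 to between -0.0074 and 0.016 in ERH. The ratio in ERH minus SAFB ranged from -0.071 to 0.015. Guide differences ranged from -0.025 to 0.18 (mir-221) and -0.088 to 0.065 (mir-222) in control, from -0.049 to 0.032 (mir-221) in SAFB, and from -0.16 to 0.075, -0.099 to 0.023 and, for the ratio, -0.049 to 0.062 in ERH.

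Total counts gave 0.233 and 0.298 in ERH against control and 0.357 and 0.322 in ERH against SAFB (mir-221, mir-222), all called, and guide differences of -0.061 for mir-221 in SAFB and 0.023 and 0.018 in ERH. Spike-ins gave 0.195 and 0.279, then 0.619 and 0.599 (called), and 91 called miRNAs in ERH against control in place of 147. Their guide differences were 0.672 and 0.599 in control, -0.035 (mir-221) in SAFB and 0.573 and 0.584 in ERH. The median of all miRNAs in these guide fits was 0.63 in control and 0.63 in ERH. A mean of at least 100 counts gave 0.069 and 0.135 in ERH against control, 0.217 for mir-221 in ERH against SAFB (adjusted p = 0.0494 in edgeR), and guide differences of 0.0045 for mir-222 in control and -0.021 and 0.0029 for mir-221 in SAFB and ERH. With no filter mir-221 differed by -0.024 between SAFB guides. For mir-222 in ERH against control, median-of-ratios scaling gave 0.066 and DESeq2 0.066. The replicate block gave -0.162 for mir-221 in SAFB (called) and changed no other member's call.

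Leaving out control guide 1 gave 0.038 (SAFB) and 0.066 (ERH) for mir-222; leaving out SAFB guide 1 gave 0.016 for mir-221 and 0.189 for mir-222 in SAFB against control, with the median of all miRNAs at 0.19, and -0.092 for mir-222 in ERH against SAFB; leaving out ERH guide 2 gave 0.041 for mir-222 in ERH, and leaving out SAFB guide 2 gave 0.047 for the ratio in ERH minus SAFB. By single populations, mir-222 was at 0.039 for SAFB guide 2 against control guide 2, at 0.025 and 0.0054 for ERH guides 1 and 2 against control guide 2, and at -0.014 and -0.033 for ERH guides 1 and 2 against SAFB guide 2. Called miRNAs were fewer in every pairing of single populations, which compares 3 with 3 libraries: 98 to 122 in SAFB against control (153 with all; 98 for SAFB guide 1 against control guide 2), 107 to 133 in ERH against control (147), and 71, 65, 75 and 70 in ERH against SAFB (108). Within batch 1, values moved to -0.184 (mir-222, SAFB), -0.252 and -0.0997 (mir-221 and mir-222, ERH) and 0.095 (ratio, ERH minus SAFB), and within batch 2 to -0.0069 and 0.090 (SAFB), 0.0998 (mir-221, ERH) and -0.037 (ratio, ERH).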
